A study of Rattus norvegicus with 325 samples.

Results

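The comparison described here is the last interval of an aging series in rat tibialis anterior, a largely fast muscle on the front of the lower hind limb. It sets the 12 libraries whose titles name this muscle and 27 months against the 12 that name it and 24 months, 24 of the 325 libraries of the series and of the 85 of this muscle. All came from untreated male Sprague Dawley rats, an outbred strain, that were raised and aged by the supplier in a barrier colony and moved to the study site some weeks before tissue was taken. Libraries were made from total RNA after removal of ribosomal RNA, and the deposited values are raw counts per gene. The study collected each age group in a single day, which means that the effects of age and of that day cannot be told apart, and no label ties a library to an animal. The p-values therefore measure the spread between these libraries. The study asked how gene expression in skeletal muscle moves toward the oldest ages, at which muscle mass is lost, and 27 against 24 months is the step that ends it.

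As background, a muscle fibre keeps its acetylcholine receptors under the nerve ending as long as the nerve drives it. When a fibre loses its nerve, the genes for receptor subunits and for myogenic transcription factors are switched on along the whole fibre, and the fibre can be taken up again by a neighbouring axon or waste away. The tibialis anterior is made mostly of fast fibres, which burn glycogen and carry the fast myosins encoded by Myh4, Myh1 and Myh2, whereas Myh7 encodes the slow myosin. In bulk tissue a lower value can come from fewer cells of a type or from less RNA per cell, and these cannot be told apart.

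The markers of fast muscle were high in all 24 libraries, which does not tell the tibialis anterior from another fast muscle. Myh4, the gene for the fastest myosin of rat limb muscle, lay between 13.15 and 16.16 log2 CPM (the scaled count of a gene as a share of its library, on the log2 scale), and Myh1 between 14.52 and 15.46. Total counts ran from 28.2 to 55.6 M at 24 months, with a median of 37.4 M, and from 21.4 to 41.8 M at 27 months, with a median of 30.1 M. The 10 most abundant genes held a median of 25.1% of counts at 24 months and 21.6% at 27 months. The first principal component, with 54.2% of the spread, ran from 24 toward 27 months but did not split them. Replicate 6 of 24 months stood at 32.4 on it, among the 27-month libraries, while the other libraries of its age lay between -27.9 and 2.47. Replicate 9 of 27 months stood at -21.1, among the 24-month libraries, while the others of its age lay between -4.19 and 34.6. It was also the library with liver transcripts, at a summed 394 CPM, where the next highest 27-month library held 4.02 and the highest 24-month library 1.73. On the second component, with 14.4% of the spread, the 27-month replicates 0, 2, 3 and 11 stood apart at 14.8 to 25.3, and no other library was above 4.25. The comparison without these last 4 libraries, 8 against 12, is called the reduced comparison, and its counts or values are given where it changes a call of a gene group.

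Of 11438 genes tested, 595 were called, 5.2% of those tested. A call here means that limma-voom gave an adjusted p under 0.05 and that the change passed 1.5-fold. More were higher than lower at 27 months: 428 rose (3.74%) and 167 fell (1.46%), so that 71.9% of the calls were higher. Scaling by total counts alone moved the median of all genes up by 0.13 on the log2 scale and raised that share to 89.9% (732 of 814 calls). Without a fold threshold the 2 directions were near even, with 1947 genes higher (17%) and 1906 lower (16.7%) at an adjusted p under 0.05. The shares over all genes, called or by the adjusted p alone, are the background for the counts of each gene group below. Most steps were modest. The median absolute change of the called genes was 0.76 on the log2 scale, the median change of all genes 0.01, and 134 calls passed 2-fold, 114 higher and 20 lower. Ages overlapped in nearly every called gene. In 2 of the 595 called genes every 27-month library lay above every 24-month library, Hdhd2 at a change of 0.59 (SE 0.06, adjusted p = 5.64e-06) and Ntsr1, a neurotensin receptor gene, at 1.10 (SE 0.18, adjusted p = 0.000812), and in no called gene did all lie below.

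A pair of libraries stood at the edge of the overlap in most genes. Of the 93 called genes that the rule for naming picked, replicate 6 was the 24-month library nearest to the 27-month side in 74, and replicate 9 the 27-month library nearest to the 24-month side in 62. Without replicate 6 the count of calls rose to 953, and without replicate 9 to 840. Leaving both out gave 1186, and since they were picked for lying among the other age, a higher count follows from the choice. Leaving out the 4 libraries apart on the second component cut the count to 331 of 11535 genes tested, 266 of them higher, with 8 libraries of 27 months left. Of the 331, 284 were among the 595. These counts, and not the shares of the full comparison, are the background for each count given below for the reduced comparison. Of the 93 genes, 64 kept their call in each of the 24 fits that left out a single library.

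**Figure D1:**
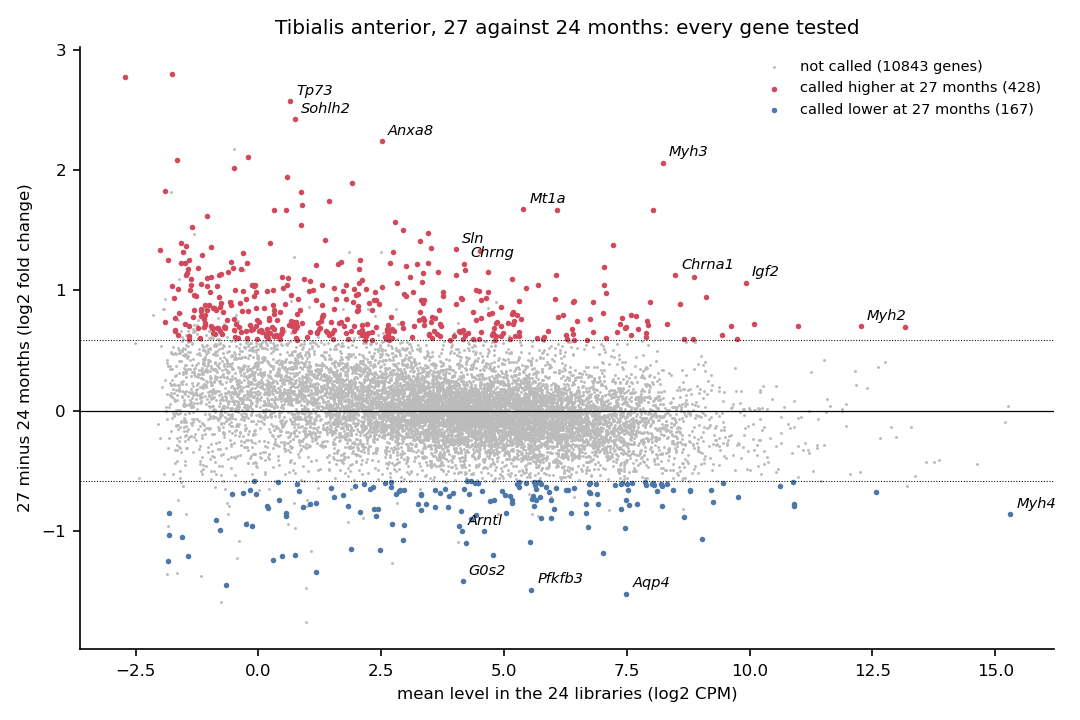
Each point is a gene, placed by its mean level over the 24 libraries (x axis, log2 CPM) and its change from 24 to 27 months (y axis, log2 fold change), with dotted lines at 1.5-fold. The 428 genes called higher reach past 2-fold more often (114) than the 167 called lower (20), and Myh4 is the most abundant gene with a call.

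The muscle acetylcholine receptor is built from 5 kinds of subunit, and the genes of 4 of them were called higher at 27 months and none lower. Over the 5 genes the median change was 0.98 on the log2 scale, against 0.01 for all genes tested. Chrna1 encodes the alpha subunit, which binds acetylcholine. Its lowest, median and highest levels were 6.17, 7.73 and 9.51 log2 CPM at 24 months and 6.91, 9.07 and 9.81 at 27 months, a change of 1.13 (SE 0.34, adjusted p = 0.0162). All but 1 of the 27-month libraries lay above the 24-month median, and 2 lay above every 24-month library, whose highest was replicate 6. Chrng, the gamma subunit of the embryonic receptor, ran from 1.97 over a median of 3.48 to 5.30 log2 CPM at 24 months and from 2.60 over 4.88 to 5.94 at 27 months, a change of 1.22 (SE 0.38, adjusted p = 0.0183). Chrnd, the delta subunit, went from 5.45, 6.54 and 7.40 to 5.95, 7.55 and 8.15, a change of 0.98 (SE 0.25, adjusted p = 0.00646). In Chrnd 7 of the 12 oldest libraries exceeded every 24-month library. Chrne, the epsilon subunit that replaces gamma in the adult receptor, also rose, by 0.65 (SE 0.20, adjusted p = 0.0182), so the embryonic and the adult subunit genes moved up together. Chrnb1, the beta subunit, had a smaller step of 0.36 (SE 0.12, adjusted p = 0.0256), under the 1.5-fold limit. Leaving out the 4 libraries apart on the second component left the changes of Chrna1 (1.09) and Chrng (1.23) at about their size but their adjusted p at 0.0711 and 0.0622, and Chrnd was then the 1 subunit gene called.

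The promoter stretches of the 5 subunit genes are shown because these genes moved together and because the E-box CAGCTG, a palindrome that reads the same on both strands, is a known binding letter sequence of the myogenic factors Myod1 and Myog. They are RefSeq sequences of rat build GRCr8, from position -130 to 20 relative to the annotated start, with each CAGCTG in capitals.
Chrna1, chr3:78877334-78877483, minus strand: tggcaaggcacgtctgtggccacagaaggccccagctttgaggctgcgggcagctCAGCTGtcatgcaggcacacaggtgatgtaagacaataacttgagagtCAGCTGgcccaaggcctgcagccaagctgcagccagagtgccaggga
Chrnb1, chr10:55015088-55015237, minus strand: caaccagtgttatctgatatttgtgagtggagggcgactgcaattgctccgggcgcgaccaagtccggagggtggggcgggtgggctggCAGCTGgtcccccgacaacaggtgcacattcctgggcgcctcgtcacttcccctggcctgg
Chrnd, chr9:95310186-95310335, plus strand: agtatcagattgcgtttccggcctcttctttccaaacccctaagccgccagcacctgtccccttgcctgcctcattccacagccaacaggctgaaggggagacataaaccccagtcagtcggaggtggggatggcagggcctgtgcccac
Chrne, chr10:55834135-55834284, minus strand: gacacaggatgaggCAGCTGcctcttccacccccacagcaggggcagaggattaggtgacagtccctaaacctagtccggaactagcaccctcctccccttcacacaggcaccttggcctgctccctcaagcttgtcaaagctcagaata
Chrng, chr9:95325854-95326003, plus strand: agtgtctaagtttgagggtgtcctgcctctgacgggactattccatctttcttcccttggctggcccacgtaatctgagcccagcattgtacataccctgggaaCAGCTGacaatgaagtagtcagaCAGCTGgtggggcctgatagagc
The E-box was found in the 300-base promoters of 4 of the 5 genes, as it was in 15.1% of all 33469 promoters of that length. Chrna1 held 2 copies, at positions -75 and -27, and Chrng 2, at -26 and -3. Chrnb1 held 1 at -41 and Chrne 1 at -116, and Chrnd had none in this window. The match is a description of letters and says nothing of which factor was bound in these samples.

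Genes that respond to denervation inside the fibre rose as well. Of 12 such genes tested, 9 were called higher and none lower, against 3.74% of all genes called higher, with a median change of 0.76. Sln, which encodes the calcium pump inhibitor sarcolipin, rose by 1.34 (SE 0.36, adjusted p = 0.00772), from a lowest and highest level of 1.61 and 5.19 log2 CPM at 24 months to 2.85 and 5.54 at 27 months. All but 1 of the 27-month libraries were above its 24-month median, and 1 was above every 24-month library. Runx1, a transcription factor gene that limits wasting in denervated fibres, rose by 0.75 (SE 0.23, adjusted p = 0.0176), Hdac4, a deacetylase that relays loss of nerve activity, by 0.65 (SE 0.20, adjusted p = 0.0167), and Gadd45a, one of its downstream genes in denervated muscle, by 0.66 (SE 0.25, adjusted p = 0.0428), a call that 13 of the 24 fits without a single library lost. Ankrd1, a stretch-sensitive titin-binding protein gene, and Sik1, a salt-inducible kinase gene, had changes of 0.95 and 0.94. Among the myogenic factors Myod1 rose by 0.77 (SE 0.17, adjusted p = 0.00256), with all 12 libraries of 27 months above the 24-month median, whereas Myog, at 0.53 (SE 0.20, adjusted p = 0.0448), missed the 1.5-fold limit. The reduced comparison called 5 of the 12, and 331 of all 11535 genes.

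The organisers of the synapse itself moved less. Of 13 tested, Ncam1, the neural cell adhesion molecule that spreads over denervated fibres, was the 1 called, at 0.69 (SE 0.24, adjusted p = 0.0297), and the median of the 13 was 0.12. Musk, the kinase that clusters the receptors, was 0.62 higher (SE 0.27) at an adjusted p of 0.0714, past 1.5-fold but not past the test, and it passed in 8 of the 39 alternative fits, among them the fit over all 7 ages (0.61, adjusted p = 0.00535). No gene of the 13 was called in the reduced comparison, Ncam1 being at 0.70 with an adjusted p of 0.0851. Lrp4 and Erbb3, the receptors for agrin and neuregulin, were at 0.53 and 0.46, while Agrn was at 0.08, Dok7 at 0.12 and Rapsn at 0.18. The ubiquitin ligases of muscle wasting did not move with the receptor genes. Trim63 (MuRF1) was at -0.23 (SE 0.12, adjusted p = 0.147) and Fbxo32 (atrogin-1) at -0.34 (SE 0.16, adjusted p = 0.0984). In the list of 12 ligase and Foxo genes the 2 calls were both falls, of Mstn, which encodes myostatin, the inhibitor of muscle growth (-0.82, SE 0.23, adjusted p = 0.00985), and of Asb2, a ligase subunit (-0.60, SE 0.16, adjusted p = 0.00787), and the list median was -0.04, or 0.08 under total-count scaling. Mstn was at -0.59 in the reduced comparison, with an adjusted p of 0.11. Asb2 was at -0.46 under total-count scaling, under the 1.5-fold limit, and lost its call in 10 of the 24 fits without a single library.

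**Figure D2:**
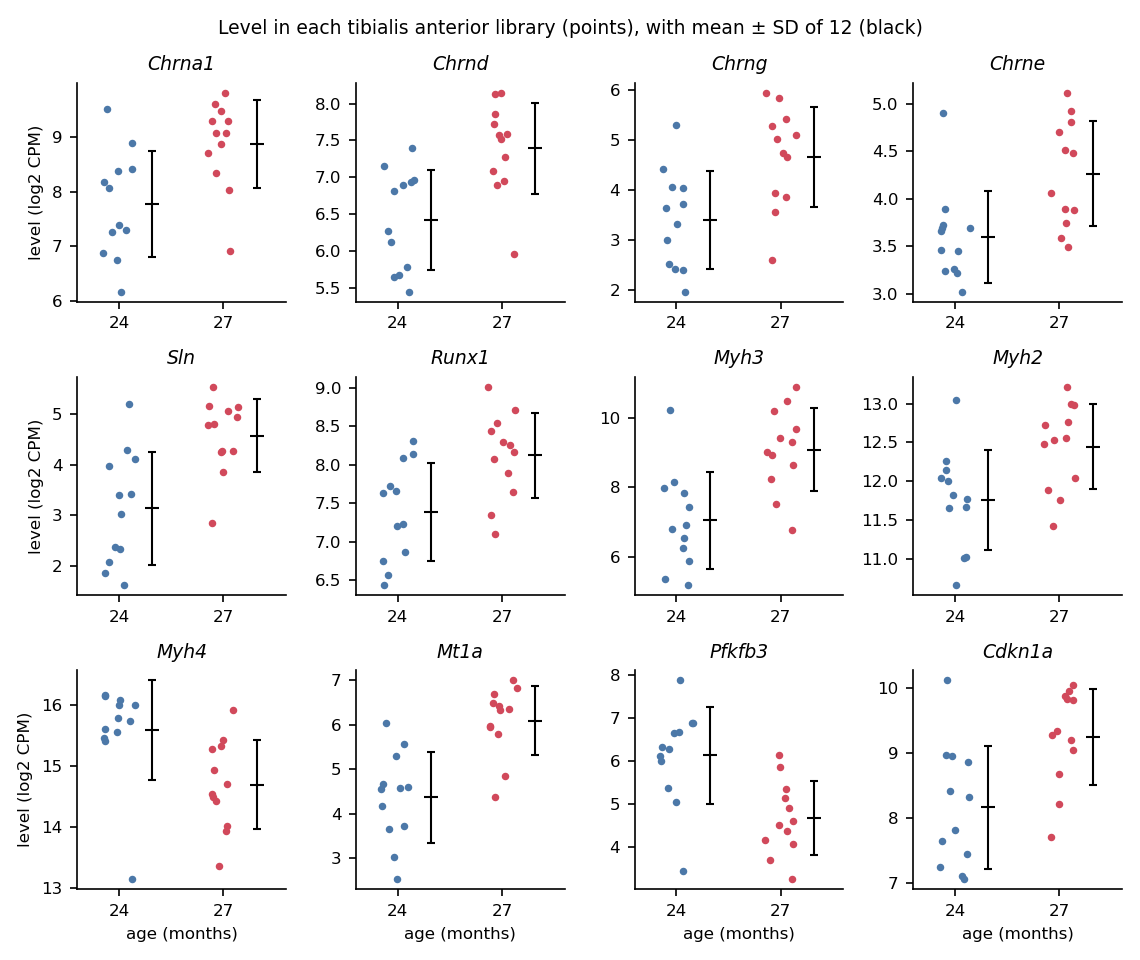
Each point is the level (log2 CPM) of a gene in 1 library, 12 at 24 months (blue) and 12 at 27 months (red), and the black bar is the mean ± SD. The receptor genes, Sln, Runx1, Myh3, Myh2, Mt1a and Cdkn1a sit higher at 27 months and Myh4 and Pfkfb3 lower, with 1 library of 24 months (replicate 6) among the oldest in many panels.

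Among the adult fast myosins Myh4 fell and Myh2 rose. Myh4 ran from 13.15 over a median of 15.75 to 16.16 log2 CPM at 24 months and from 13.36 over 14.62 to 15.92 at 27 months, a fall of 0.86 on the log2 scale (SE 0.29, adjusted p = 0.0274). The 13.15 was replicate 6, 11 of the 12 oldest libraries were below the 24-month median, and the highest of them, 15.92, was replicate 9. Myh2, the gene of the less fast 2A myosin, rose by 0.71 (SE 0.23, adjusted p = 0.0245), from 10.65, 11.80 and 13.05 to 11.42, 12.54 and 13.22. Myh1, of the 2X type, was at 0.04 (SE 0.10, adjusted p = 0.798) and the slow Myh7 at -0.37 (SE 0.45, adjusted p = 0.539). Myh7 was the most uneven of the 4, from 7.34 to 11.98 log2 CPM within the 27-month group. Of 15 fast sarcomere genes 3 were called lower, Myh4, Mylk2 (the kinase of the fast regulatory light chain, -0.88) and Actn3 (the actinin of fast fibres, -0.68, adjusted p = 0.0499), and 1 higher, Myh2, with a median of -0.29. Actn3 lost its call in 18 of the 24 fits that left out a single library. None of the 15 was called in the reduced comparison, where the median was -0.35.

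The myosins of developing fibres went the other way. Myh3, the embryonic myosin gene, had 5.19, 6.87 and 10.22 log2 CPM as its lowest, median and highest levels at 24 months and 6.77, 9.14 and 10.88 at 27 months, a rise of 2.06 (SE 0.51, adjusted p = 0.00513). It was among the 8 largest rises of genes above a mean of 0 log2 CPM, with symbols that start with LOC or RGD left out. The 10.22 belonged to replicate 6, and 11 of the 12 oldest libraries were above the 24-month median. Myh8, the neonatal myosin gene, rose by 0.66 (SE 0.20, adjusted p = 0.0167), Tnnt2, the cardiac and embryonic troponin T, by 1.41 (SE 0.41, adjusted p = 0.0127) and Csrp3, a Z-disc protein gene, by 1.19 (SE 0.28, adjusted p = 0.00427). In all, 4 of 10 developmental sarcomere genes were called higher and none lower, with a median of 0.61. Genes of satellite cells and of fusion followed in part, with 3 of 15 called higher, Tmem8c, which encodes the fusion protein myomaker (1.03, SE 0.32, adjusted p = 0.0179), Myf5 (0.92, SE 0.28, adjusted p = 0.0163) and Myod1, and with Pax7, the marker of satellite cells, at 0.32. In the reduced comparison 4 developmental sarcomere genes were called, Myh8 not among them (0.54, adjusted p = 0.0936), and 1 of the 15. Tmem8c (0.93, adjusted p = 0.0784) and Myf5 (0.92, adjusted p = 0.0584) were then not called. Of the slow sarcomere genes Casq2, the calsequestrin of slow and cardiac muscle, was the 1 called of 13 (1.13, SE 0.33, adjusted p = 0.013), or 1.00 with an adjusted p of 0.0796 in the reduced comparison. The myosin heavy chain genes are close copies of each other, and how the counting shared reads between them is not stated, so their values carry that uncertainty.

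Calcium release and excitation genes moved both ways. Of 16 tested, 2 were called higher, among them the potassium channel gene Kcnq5 (0.61), and 1 lower, Trdn, which encodes triadin, a partner of the calcium release channel. Kcnq5 lost its call in 9 of the 24 fits without a single library. Both edgeR and DESeq2 put it at 0.56, under the 1.5-fold limit. Trdn went from 10.75, 11.15 and 11.40 log2 CPM to 9.21, 10.43 and 11.39, a fall of 0.79 (SE 0.21, adjusted p = 0.00763), and 8 of the 12 oldest libraries were below every 24-month library. Its 4 lowest values were those of the libraries apart on the second component, and without them the change was -0.38 with an adjusted p of 0.0526. Trdn was itself among the genes that weighed most on that component, so a smaller fall without these libraries follows in part from the choice. Aqp4, the water channel of fast fibres, fell by 1.52 (SE 0.47, adjusted p = 0.0179), from a median of 8.44 to 6.53 log2 CPM. This was the largest called fall among genes above a mean of 0 log2 CPM, with symbols that start with LOC or RGD left out. Aqp4 was at -1.56 in the reduced comparison, with an adjusted p of 0.0638.

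Genes of glycolysis and glycogen breakdown, the fuel path of fast fibres, lay lower at 27 months as a group, though few of them passed the test singly. Of 31 tested, 4 were called lower and none higher, against 1.46% of all genes called lower, and the median was -0.49 (-0.36 under total-count scaling). Pfkfb3, which makes the activator of phosphofructokinase, had lowest, median and highest levels of 3.42, 6.29 and 7.86 log2 CPM at 24 months and 3.24, 4.55 and 6.14 at 27 months, a fall of 1.49 (SE 0.38, adjusted p = 0.0061), with all 12 oldest libraries below the 24-month median. Phkg1, the catalytic subunit of phosphorylase kinase, fell by 0.89 (SE 0.29, adjusted p = 0.0212), Ugp2, which makes UDP-glucose for glycogen, by 0.66 (SE 0.16, adjusted p = 0.0054) and Pfkm, muscle phosphofructokinase, by 0.62 (SE 0.24, adjusted p = 0.0457). Other members had similar changes with a wider spread, such as Pygm, glycogen phosphorylase (-0.62, SE 0.27, adjusted p = 0.0726), Gpd1 (-0.82, SE 0.35, adjusted p = 0.0712) and Fbp2 (-0.87, SE 0.38, adjusted p = 0.076). Without replicate 6 of 24 months 18 of the 31 were called lower, in a fit that called 953 of 11443 genes, 642 of them higher. That library was picked for lying among the 27-month libraries, so more calls without it follow from the choice. Pfkm lost its call in 18 of the 24 fits without a single library. The reduced comparison called 2 of them, Pfkm (-0.72, adjusted p = 0.0736) and Ugp2 (-0.50, adjusted p = 0.0535) not among them.

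Mitochondrial genes showed small steps. None of 34 genes of respiratory complex I was called, and 5 were lower at the adjusted p alone, 16.7% of all genes being lower by that rule. Their median of -0.19 became -0.06 under total-count scaling, and the same medians were found for the 37 genes of complexes II to V, where Cycs, cytochrome c, was the 1 called (-0.71, SE 0.18, adjusted p = 0.00606). At the adjusted p alone, 10 of these 37 were lower and 1 higher. The change was below 0 in 32 of the 34 complex I genes and in 35 of the 37. Of 22 citric acid cycle genes Dld, the lipoamide dehydrogenase shared by several enzyme complexes, was called lower (-0.60, SE 0.13, adjusted p = 0.00265), and 8 were lower at the adjusted p alone. Of 17 regulators tested, 5 were lower and 1 higher at the adjusted p alone. Ppargc1a, the coactivator that drives mitochondrial synthesis, was at -0.15 (SE 0.08, adjusted p = 0.169) and Esrra at -0.17 (SE 0.14, adjusted p = 0.342). Nfyb, which the study names beside Esrra for mitochondrial pathways, was at -0.39 (SE 0.08, adjusted p = 0.00224), under the 1.5-fold limit. Prkaa2, a catalytic subunit of the energy sensor AMPK, fell by 0.67 (SE 0.17, adjusted p = 0.00608). Dld was at -0.44 in the reduced comparison, under the 1.5-fold limit, and Prkaa2 at -0.57 with an adjusted p of 0.0532. No gene of 25 for fatty acid uptake and oxidation was called, and their median of -0.05 changed sign to 0.07 under total-count scaling.

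**Figure D3:**
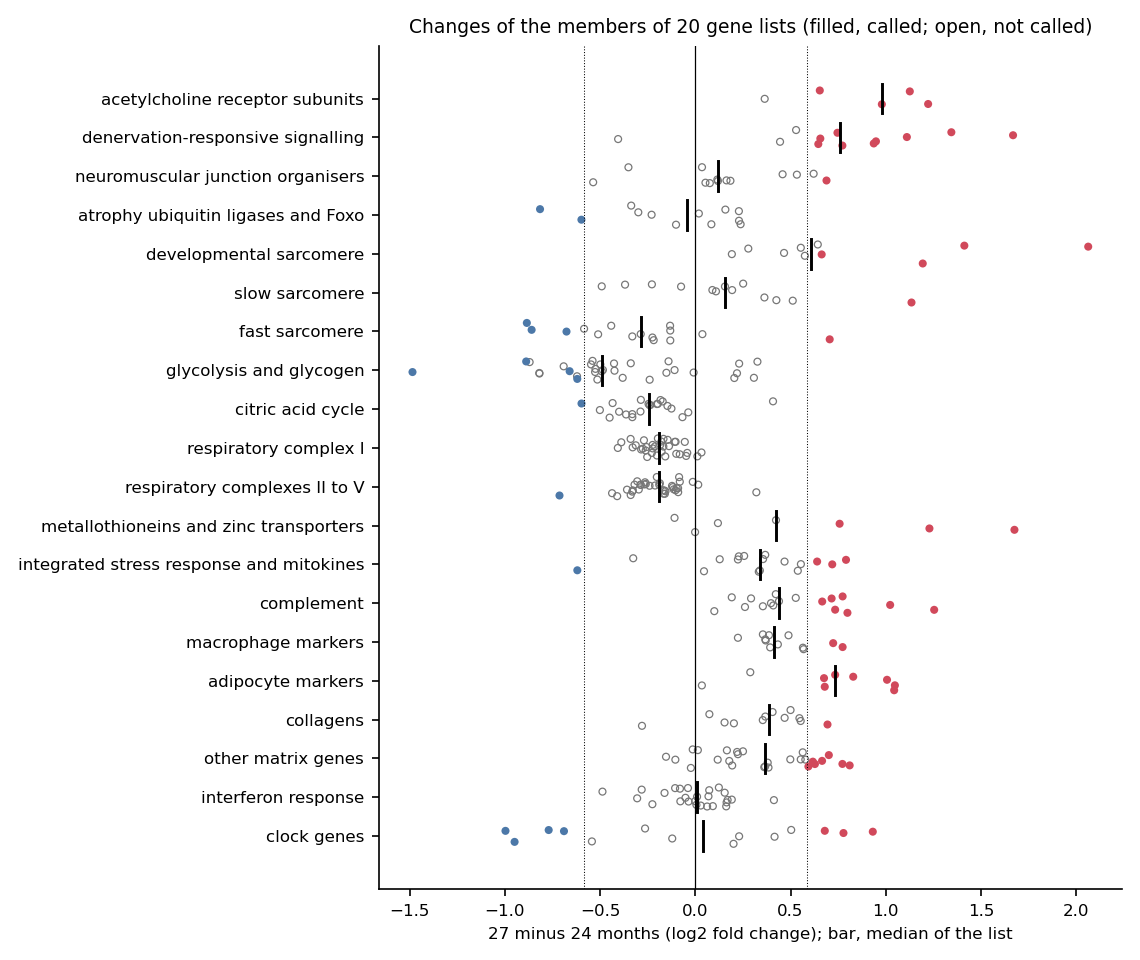
Each point is a member of 1 of 20 gene lists, placed by its change from 24 to 27 months (x axis, log2 fold change), filled where called and open where not, with a bar at the list median and dotted lines at 1.5-fold. The receptor subunits (median 0.98), denervation genes (0.76) and adipocyte markers (0.73) lie farthest to the right and the glycolysis genes (-0.49) farthest to the left, while the interferon genes gather at 0.01.

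Metallothioneins, small proteins that hold zinc and copper, were called higher at 27 months for all 3 genes tested. Mt1a had 2.54, 4.57 and 6.03 log2 CPM as its lowest, median and highest levels at 24 months and 4.39, 6.33 and 6.99 at 27 months, a rise of 1.68 (SE 0.35, adjusted p = 0.00203). In 7 of the 12 oldest libraries Mt1a exceeded every 24-month library, and the lowest was again replicate 9. Mt2A rose by 1.23 (SE 0.28, adjusted p = 0.00312), from a median of 2.71 to 4.09, and Mt3 by 0.76 (SE 0.26, adjusted p = 0.0277), from -0.36 to 0.30. In the reduced comparison Mt3 was at 0.51 with an adjusted p of 0.192, while Mt1a and Mt2A kept their calls. Of the zinc transporters and the metal-sensing factor in the same list, Slc30a2 was at 0.42, Slc30a1 at 0.12 and Mtf1 at -0.11, and none of the 4 tested was called.

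The promoters of these 3 genes are shown because they rose together and because the metal response element, TGCACNC or TGCGCNC on either strand, is the known binding letter sequence of Mtf1. Mt1a is named Mt1 in RefSeq. The stretches run from position -240 to -41 relative to the start (RefSeq, GRCr8), with the elements in capitals and overlapping matches joined.
Mt1a, chr19:10833016-10833215, minus strand: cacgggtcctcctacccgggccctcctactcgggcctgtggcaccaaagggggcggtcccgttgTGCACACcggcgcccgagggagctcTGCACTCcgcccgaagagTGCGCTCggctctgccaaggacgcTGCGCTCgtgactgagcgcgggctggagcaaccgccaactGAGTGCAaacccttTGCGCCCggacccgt
Mt2A, chr19:10838749-10838948, minus strand: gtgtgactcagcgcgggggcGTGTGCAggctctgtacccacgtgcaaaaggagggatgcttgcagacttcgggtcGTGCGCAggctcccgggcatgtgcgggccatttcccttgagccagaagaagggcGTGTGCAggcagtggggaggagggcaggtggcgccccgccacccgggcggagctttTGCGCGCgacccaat
Mt3, chr19:10856121-10856320, minus strand: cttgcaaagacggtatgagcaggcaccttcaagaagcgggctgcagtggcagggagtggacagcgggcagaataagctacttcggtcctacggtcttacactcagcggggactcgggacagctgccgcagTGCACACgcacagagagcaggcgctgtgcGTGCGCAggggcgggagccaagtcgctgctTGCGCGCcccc
All 3 held the element in their 300 bases, with 6 matches in Mt1a, 4 in Mt2A and 3 in Mt3, and 24.2% of all promoters held at least 1.

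The integrated stress response, in which the factor Atf4 switches on amino acid synthesis genes, had calls both ways. Of 17 tested, 3 were called higher: Aldh1l2, a mitochondrial folate enzyme (0.79, SE 0.28, adjusted p = 0.0316), Phgdh, the entry to serine synthesis (0.72, SE 0.21, adjusted p = 0.0136), and Ddit4, an inhibitor of mTOR (0.64, SE 0.10, adjusted p = 0.000648). Atf4 itself was called lower, from 6.91, 8.01 and 8.56 log2 CPM to 6.85, 7.37 and 8.20 (-0.62, SE 0.17, adjusted p = 0.0101), and under total-count scaling its change of -0.48 was under the 1.5-fold limit. These 3 rises lost their call in the reduced comparison, Aldh1l2 at 0.53 (adjusted p = 0.193), Phgdh at 0.65 (adjusted p = 0.074) and Ddit4 at 0.58, under the 1.5-fold limit. Gdf15, a hormone released by stressed muscle, had too few counts to be tested between these ages, with a mean of -3.22 at 24 months (SD 1.45, n = 12) and -1.93 at 27 months (SD 0.72, n = 12) on the log2 CPM scale. Of 18 heat shock genes, Hspb7, a small chaperone of heart and muscle, was the 1 called (0.72, SE 0.16, adjusted p = 0.00319), against 5.2% of all genes tested. None of 32 proteasome, 25 autophagy or 11 polyamine genes was called in either direction. At the adjusted p alone, 8 of the 32 proteasome genes were lower, against 16.7% of all genes. Psma3 had the lowest change of them at -0.38. Fundc1, a receptor for removal of mitochondria, was lowest of the autophagy genes at -0.45 (SE 0.07, adjusted p = 0.000648), below every 24-month library in 11 of 12.

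Growth and cell cycle genes held steps of 2-fold and more. Cdkn1a, the cell cycle inhibitor p21, rose by 1.11 (SE 0.33, adjusted p = 0.0133), from a median of 8.07 to 9.30 log2 CPM, and Cdkn1c, its relative p57, by 1.15 (SE 0.23, adjusted p = 0.00192), from 2.76 to 4.19, with all 12 oldest libraries above the 24-month median. These were the 2 calls among 11 cell cycle inhibitor and senescence genes. Cdkn1a was at 1.15 in the reduced comparison, with an adjusted p of 0.0512. Igf2, the fetal insulin-like growth factor, had 8.19, 9.21 and 10.32 log2 CPM at 24 months and 8.95, 10.12 and 11.53 at 27 months (1.07, SE 0.29, adjusted p = 0.00905), and Igf1 was at 0.03. Igfbp2, a binding protein of both, rose from -2.68, -0.30 and 0.32 to -1.27, 1.06 and 2.70 (1.67, SE 0.42, adjusted p = 0.00552), with 10 of the 12 oldest libraries above all of 24 months. Fst, the myostatin antagonist follistatin, rose by 0.99 (SE 0.30, adjusted p = 0.0142), opposite to Mstn, and Ghr, the growth hormone receptor, fell by 0.66 (SE 0.14, adjusted p = 0.00241), or by 0.51, under the 1.5-fold limit, in the reduced comparison.

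Complement was the immune list with the most calls, 7 of 17 higher and none lower, against 3.74% of all genes called higher, at a median of 0.44. C3, the central component, rose by 1.25 (SE 0.32, adjusted p = 0.0066) from a median of 1.13 to 2.40 log2 CPM. Its highest value, 5.00, was in replicate 9, the library with liver transcripts, and without that library the change of C3 was 1.07 with an adjusted p of 0.00179. C4a and C4b, near copies of each other, rose by 1.02 and 0.80, and the macrophage-made C1qa by 0.77 (SE 0.14, adjusted p = 0.00143), with 8 of 12 oldest libraries above all of 24 months. Macrophage markers moved in the same direction, with Cd163 (0.72, SE 0.16, adjusted p = 0.00246) and C1qa called among 12, none lower, and a summed level of 97.2 to 235 CPM (median 149) at 24 months and 128 to 272 (median 231) at 27 months. The reduced comparison called 5 of the 17 complement genes, and 331 of all 11535 genes. Whether the complement genes moved with the number of macrophages was not tested. No interferon response gene of 26 was called, where 5.2% of all genes were, the median was 0.01, and Isg15 was at 0.09 (SE 0.27, adjusted p = 0.807). Of 14 genes of MHC class I, B2m, its light chain (0.60, SE 0.17, adjusted p = 0.0099), and RT1-A1, a heavy chain gene with close copies (0.65, SE 0.20, adjusted p = 0.018), were called, and of 9 class II genes none. Socs3, the feedback inhibitor of interleukin-6 signalling, was the 1 call of 16 in that pathway (0.65, SE 0.24, adjusted p = 0.0387). Its call was lost in 11 of the 24 fits without a single library and in the reduced comparison (0.58, adjusted p = 0.128). Stat3 was at 0.24 (SE 0.08, adjusted p = 0.0224), under 1.5-fold.

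Fat cell markers were mostly higher. Of 9, 7 were called higher and none lower, against 3.74% of all genes called higher, with a median of 0.73. Lep, leptin, went from -1.11, -0.02 and 1.14 log2 CPM to 0.13, 1.00 and 1.55 (1.04, SE 0.21, adjusted p = 0.00173), with all 12 oldest libraries above the 24-month median. Cidec, a lipid droplet protein, went from 0.78, 1.43 and 2.22 to 1.71, 2.26 and 2.78 (0.83, SE 0.15, adjusted p = 0.00113), and 8 of the 12 were above every 24-month library. Cidea rose by 1.05, Pck1 by 1.01, Cfd (adipsin) by 0.73, and Plin1 and Adipoq by 0.68 each, whereas Fabp4, which capillaries make as well, was at 0.03. Together the 9 markers summed to 41.4 to 77.8 CPM (median 51) at 24 months and 60.2 to 92.7 (median 72.4) at 27 months. Of the 9, 6 were called in the reduced comparison, where 331 of all 11535 genes were.

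Matrix genes rose in number but few of them far. Of 12 collagens Col1a1 alone was called (0.69, SE 0.24, adjusted p = 0.0277), from 6.29, 6.85 and 8.21 log2 CPM to 6.55, 7.65 and 8.55, and 8 of the 12 were higher at the adjusted p alone, against 17% of all genes. Col3a1 was at 0.55 (SE 0.19, adjusted p = 0.0299). Of 27 other matrix genes 7 were called higher and none lower, against 3.74% of all genes called higher. They were led by Bgn, biglycan (0.81, SE 0.19, adjusted p = 0.00424), Tgfb1, the growth factor that drives scarring (0.77, SE 0.17, adjusted p = 0.00256), Postn, periostin (0.70, SE 0.27, adjusted p = 0.0448), and Timp1 (0.67, SE 0.22, adjusted p = 0.022). Postn lost its call in 17 of the 24 fits without a single library, and in the reduced comparison no collagen and 3 of the 27 were called. No fibroblast marker of 10 was called, with a median of 0.30 and summed levels of 630 to 1281 CPM (median 764) and 744 to 1141 (median 967) at 24 and 27 months.

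Among the markers of other cells, no endothelial marker of 10 was called (median -0.09, or 0.04 under total-count scaling), and Emcn was the lowest in p at -0.26 (SE 0.06, adjusted p = 0.00329). Ngfr, a receptor of Schwann cells that lost their axon, was the 1 call of 9 Schwann cell markers (0.70, SE 0.25, adjusted p = 0.0324), and Mbp, of myelin, was at 0.31. Smooth muscle markers split, with Cnn1 higher (0.72, SE 0.17, adjusted p = 0.00394) and Lmod1 lower (-0.95, SE 0.31, adjusted p = 0.0217) of 9. Of 6 red cell markers Slc4a1, the anion exchanger, was called higher (1.04, SE 0.29, adjusted p = 0.0103), of 6 tendon markers Scx, a tendon transcription factor (0.63, SE 0.18, adjusted p = 0.012), of 14 genes of the dystrophin complex Dtnb (0.66, SE 0.19, adjusted p = 0.0128), and of 18 aminoacyl-tRNA synthetases Farsb (0.59, SE 0.16, adjusted p = 0.00848), whose call 11 of the 24 fits without a single library lost. These few calls stand beside 5.2% of all genes tested being called. In the reduced comparison Ngfr (0.76, adjusted p = 0.0736), Lmod1 (-0.97, adjusted p = 0.084) and Dtnb (0.63, adjusted p = 0.0638) were not called. None of 5 T cell and 2 neutrophil markers tested was called, with Cd2 at 0.55 and Csf3r at 0.53 the lowest in p, no B cell marker had enough counts, and of the liver transcripts only Hp did (0.38, SE 0.30, adjusted p = 0.332). The part of these other cells in the changes above was not tested.

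Clock genes stepped in both directions, with 3 of 14 called higher and 4 lower, or 2 and 3 in the reduced comparison. Arntl, which encodes the activator Bmal1, went from 3.54, 4.59 and 5.27 log2 CPM to 3.03, 3.44 and 3.88, a fall of 1.00 (SE 0.16, adjusted p = 0.000725), and 8 of the 12 oldest libraries lay below every 24-month library. Its partner gene Npas2 fell by 0.95 (SE 0.18, adjusted p = 0.00162) and their target Nr1d1 by 0.77 (SE 0.14, adjusted p = 0.00142). The repressor genes rose, Per2 from 4.81, 5.38 and 6.19 to 5.89, 6.34 and 6.78 (0.93, SE 0.14, adjusted p = 0.000648), above every 24-month library in 10 of 12, and Per1 by 0.78 (SE 0.19, adjusted p = 0.00549). Per2 and Arntl were among the 19 genes that passed a Bonferroni adjustment. Every age was collected within the same daytime hours but on a day of its own, and the part of that day in these changes cannot be told apart from age.

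The 8 largest rises among genes above a mean of 0 log2 CPM, with LOC and RGD symbols left out, were in Tp73 (2.57), Sohlh2 (2.42), Anxa8 (2.24), Myh3 (2.06), Tac4 (1.94), Calml3 (1.89), Krt8 (1.82) and Sytl1 (1.74). Tp73, a relative of the tumour suppressor p53, had -4.44, -0.93 and 3.56 log2 CPM as its lowest, median and highest levels at 24 months and -0.37, 2.10 and 3.28 at 27 months (SE 0.65, adjusted p = 0.00612). All 12 oldest libraries were above the 24-month median, but none was above the 3.56 of the highest 24-month library. Sohlh2, a germ cell transcription factor gene, had a similar range of -4.27, -0.46 and 3.60 against -0.75, 1.85 and 3.47 (SE 0.66, adjusted p = 0.00896). The fitted size of both differed by method, and edgeR's quasi-likelihood test gave 1.56 (adjusted p = 0.0536) for Tp73 and 1.53 (adjusted p = 0.0552) for Sohlh2. Calml3, at 0.98, was also not called by that test (adjusted p = 0.205). Krt8, a keratin of simple epithelia that denervated fibres also make, rose with all 12 oldest libraries above the 24-month median (SE 0.49, adjusted p = 0.00862).

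By the same rule, the 8 largest falls were in Aqp4 (-1.52), Pfkfb3 (-1.49), G0s2 (-1.41), Iqcg (-1.34), Slc26a9 (-1.24), Unc5a (-1.20), Slc41a3 (-1.20) and Cacng7 (-1.20). G0s2, an inhibitor of fat breakdown, was the steadiest of them, from 3.26, 4.77 and 5.52 log2 CPM to 2.54, 3.23 and 4.27 (SE 0.23, adjusted p = 0.000743). All 12 oldest libraries were below the 24-month median and 6 below every 24-month library, and it kept its call in each of the 39 alternative fits. Slc41a3, a magnesium transporter gene, went from 3.39, 5.41 and 5.74 to 2.59, 3.99 and 5.20 (SE 0.26, adjusted p = 0.00241). Unc5a and Cacng7 were less firm, losing their calls in 15 and 16 of the 24 fits without a single library. In the reduced comparison Iqcg, Slc26a9, Unc5a and Cacng7 were at -1.35 to -1.45 with adjusted p-values of 0.0775 to 0.0942.

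The last step came on top of different histories. Chrna1 stood at 3.51 log2 CPM at 6 months (SD 0.27, n = 12), was at 3.35 at 12 months, then at 5.04, 5.99, 7.77 and 8.87 at 18, 21, 24 and 27 months. The SD among libraries was 0.97 at 24 months and 0.80 at 27 months. Sln ran from -1.97 at 6 months to 3.14 and 4.58 at 24 and 27 months, Runx1 from 3.01 to 7.38 and 8.12, and Mt1a from 0.51 to 4.37 and 6.08. In these genes the level was already high at 24 months. In Myh4 and Aqp4 the levels from 6 to 21 months lay close together. Myh4 was at 16.22 at 6 months, 15.97 at 21 months, 15.59 at 24 months and 14.70 at 27 months, with an SD of 0.11 at 6 months, 0.81 at 24 months and 0.72 at 27 months. Aqp4 was at 8.85, 8.75, 8.09 and 6.57, and Pfkfb3 at 6.71, 6.64, 6.12 and 4.66, at those 4 ages. G0s2 was at 5.57 at 6 months and 4.71 at 24 months before its 3.29 at 27 months. Myh3 was at 5.26, 5.91, 7.05 and 9.08, and Tp73 at -3.78, -2.27, -0.85 and 1.83, at 6, 21, 24 and 27 months. Some genes turned back. Col1a1 was at 8.22 at 6 months, 6.96 at 21 months, 6.99 at 24 months and 7.68 at 27 months, so its last step upward left it under its young level, and Myh2 went from 12.56 to 11.76 and back to 12.45 at 6, 24 and 27 months. These levels are descriptions, since the 24-month libraries enter every step drawn from them.

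**Figure D4:**
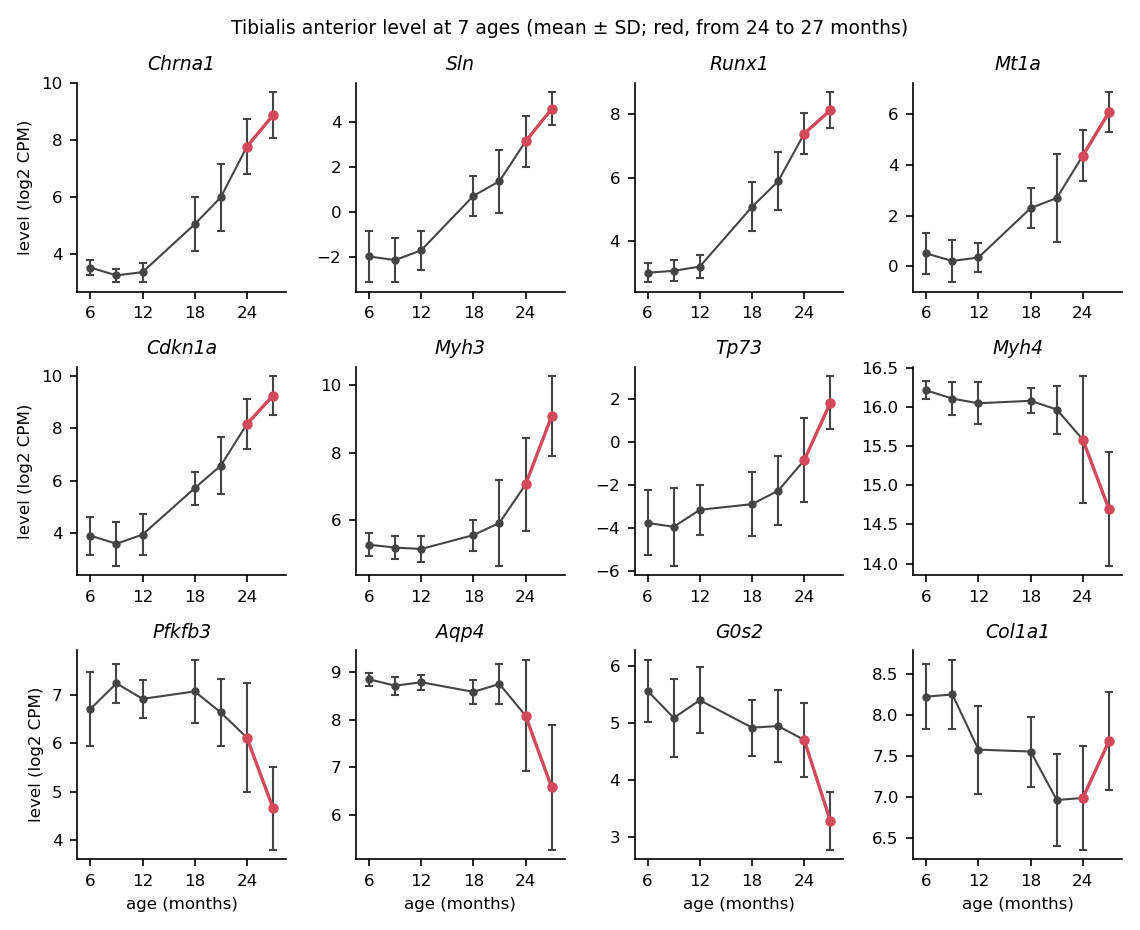
Mean level ± SD (log2 CPM) of 12 genes in the tibialis anterior at 7 ages from 6 to 27 months (12 libraries an age, 13 at 21 months), with the last interval in red. Chrna1, Sln, Runx1, Mt1a and Cdkn1a climb before 24 months, Myh4, Aqp4 and Pfkfb3 bend down late, and Col1a1 falls and then rises.

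The same step was measured in the other muscles of the series, and the difference between the step in the tibialis anterior and the step in each of them was tested. These tests treated the libraries of both muscles as independent, because no label tells which came from the same rat. The SEs therefore take no account of any rat that gave both muscles. Against the gastrocnemius, the other large fast muscle (9 and 11 libraries at 24 and 27 months), 15 of 11780 genes differed (0.127%), 6 with a higher and 9 with a lower change in the tibialis anterior. The largest among genes above a mean of 0 log2 CPM, with LOC and RGD symbols left out, were Sdk2, a cell adhesion gene, which changed by 0.66 in the tibialis anterior and -0.34 in the gastrocnemius (difference 0.99, SE 0.22, adjusted p = 0.0239), Esm1, an endothelial proteoglycan (-1.07 and -0.19, difference -0.88, SE 0.23, adjusted p = 0.0466) and Lsm5 (-0.50 and 0.30, difference -0.80, SE 0.18, adjusted p = 0.0239). The receptor genes were not among them. Chrna1 changed by 1.13 in the tibialis anterior and 0.03 in the gastrocnemius, Chrnd by 0.98 and -0.06, and Runx1 by 0.75 and -0.19, but the differences of 1.10 (SE 0.47, adjusted p = 0.24), 1.04 (SE 0.33, adjusted p = 0.107) and 0.93 (SE 0.34, adjusted p = 0.15) did not pass, so a rise of the receptor genes that is particular to the tibialis anterior was not shown.

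Against the soleus, a slow muscle (12 and 12 libraries), 88 of 11874 genes differed (0.741%), 47 with a higher and 41 with a lower change in the tibialis anterior. Fast sarcomere genes made up 9 of the 41. Myh4 fell by 0.86 in the tibialis anterior while it changed by 2.68 (SE 0.34) in the soleus, a difference of -3.54 (SE 0.66, adjusted p = 0.00247), Actn3 differed by -2.80 (SE 0.62, adjusted p = 0.0123) and Tnni2, the fast troponin I, by -2.73 (SE 0.61, adjusted p = 0.0133). The median change of the 15 fast sarcomere genes was -0.28 in the tibialis anterior and 2.03 in the soleus. Differences in the other direction included the smooth muscle genes Cnn1 (1.27, SE 0.29, adjusted p = 0.0155), Acta2, Myh11 and Tagln, besides Dtnb (0.97), Farsb (0.81) and Sdk2 (0.94). Chrna1 (1.45 in the soleus), Chrng (1.63) and Mt1a (2.33) did not differ from the tibialis anterior past the threshold, with differences of -0.32 (SE 0.55), -0.40 (SE 0.54) and -0.66 (SE 0.59).

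Against the diaphragm, the breathing muscle (12 and 12 libraries), 269 of 11973 genes differed (2.25%), 207 with a higher and 62 with a lower change in the tibialis anterior, and under total-count scaling 489 of 504 were higher. Fat cell markers stood out by count, with 6 of 9 changing more in the tibialis anterior and medians of 0.73 and -0.30. Lep was at 1.03 and -0.67 in the 2 muscles (difference 1.70, SE 0.57, adjusted p = 0.0394) and Cidea at 1.03 and 0.02 (difference 1.01, SE 0.31, adjusted p = 0.0273). Igfbp2 (1.64 and -0.16) and the neuropeptide gene Npy (0.85 and -0.72) differed by 1.80 (SE 0.60, adjusted p = 0.0373) and 1.56 (SE 0.35, adjusted p = 0.00545). With Lep these were the 3 largest differences among genes above a mean of 0 log2 CPM, with LOC and RGD symbols left out. Of the complement genes 4 of 17 differed, C1qa and C4a with changes of -0.02 and 0.00 in the diaphragm. Postn was at 0.69 and -0.46 (difference 1.15, SE 0.34, adjusted p = 0.0225). The receptor genes stood close in both muscles, Chrna1 at 1.11 and 1.24 (difference -0.13, SE 0.46) and Chrnd at 0.97 and 1.02 (difference -0.05, SE 0.32).

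**Figure D5:**
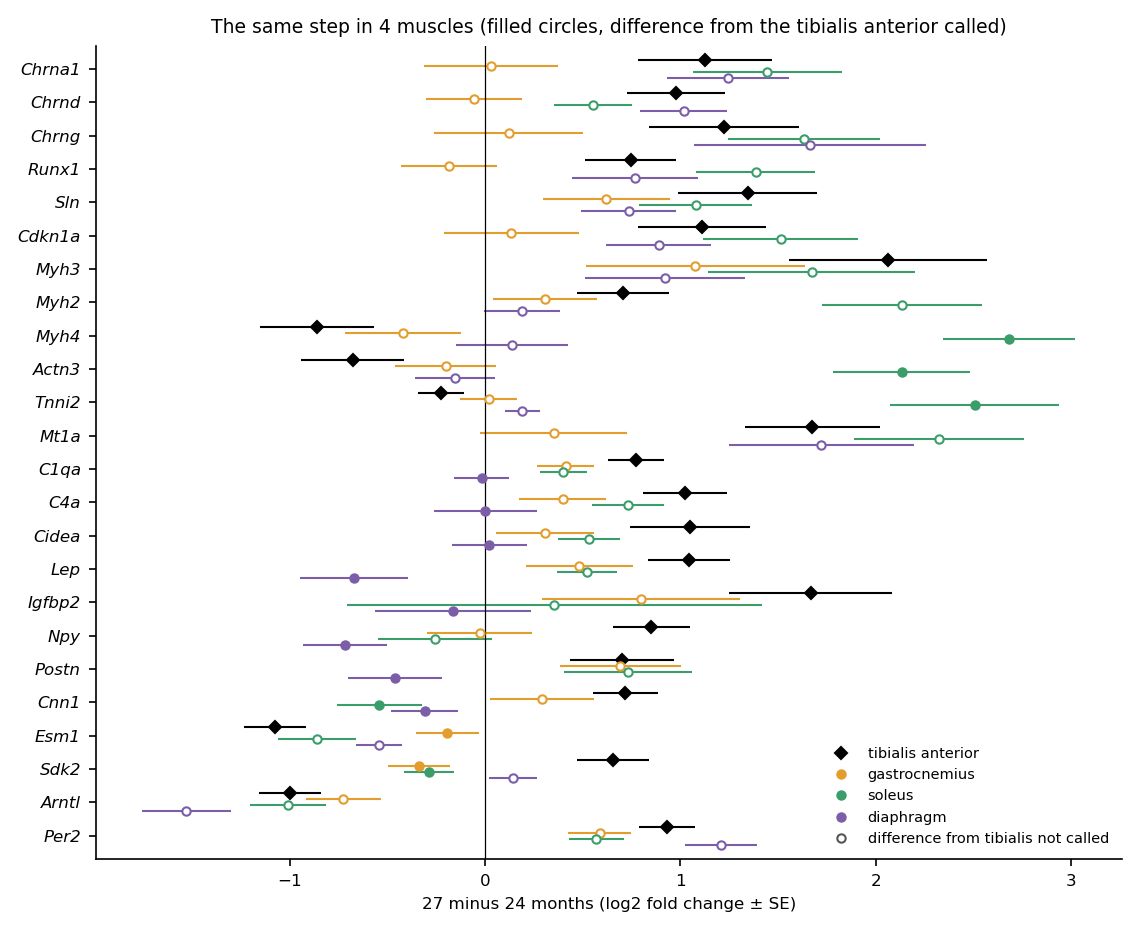
Change from 24 to 27 months ± SE (log2 fold change) of 24 genes in the tibialis anterior (black diamonds), gastrocnemius, soleus and diaphragm, with circles filled where the difference from the tibialis anterior was called. Myh4, Actn3 and Tnni2 lie left of 0 in the tibialis anterior and near 2 or above in the soleus, and the receptor genes lie near 0 in the gastrocnemius with open circles.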

How the data were processed

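Ribosomal RNA-depleted, strand-specific libraries of rat muscle were sequenced, and the authors deposited raw counts per gene for each library. They were made with the ArrayStudio software (version not given in the sources used here) against the rat B6.0 reference with an in-house gene model based on RefSeq. Whether counting used strand is not stated. Each file held 17870 lines. The 494 symbols on more than 1 line (1049 lines, 1.87% of counts) were summed to leave 17315 symbols, of which 2459 were at 0 in all 24 libraries. No files were identical, and the lowest chi-square per degree of freedom between libraries of 1 age was 14.1.

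Counts were filtered with filterByExpr (minimum count 10, minimum total 15), scaled by TMM and fitted with limma-voom (R 4.3.3, limma 3.58.1, edgeR 4.0.16). The study's methods name a Bonferroni adjustment, which was run as an alternative to the Benjamini-Hochberg adjustment used here, with DESeq2 1.42.0 and edgeR as other tests. Differences between muscles were tested as an interaction in 1 fit for each pair of muscles, so a change can differ slightly from that of the tibialis anterior alone. Levels are log2 CPM with a prior count of 0.5, scaled over the 85 libraries of the muscle. The steps were tested on simulated data. Genes were named by rule: a panel, the 8 largest called rises and falls above a mean of 0 log2 CPM, up to 4 called members of each list with the largest change (otherwise the member with the lowest p), and the 3 largest called differences of each pair of muscles. Uncalled list members set beside these, and Hdhd2 and Ntsr1, were chosen after their values were seen. Symbols that start with LOC or RGD were skipped in the rankings of rises, falls and differences. The comparison, the gene lists and the panel were chosen with earlier results of these data known. Some results are not reported here.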

Additional observations from a re-analysis of the deposited data

Results flagged for a closer look

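These results stood out because the change from 24 to 27 months in the tibialis anterior differed from that in another muscle by a test of the difference itself. Values are differences of log2 changes, the tibialis anterior minus the other muscle, with Benjamini-Hochberg adjusted p-values from limma-voom.

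Against the soleus the fast fibre genes Myh4 (-3.54, adjusted p = 0.00247), Actn3 (-2.80, adjusted p = 0.0123) and Tnni2 (-2.73, adjusted p = 0.0133) changed by -0.86, -0.67 and -0.22 in the tibialis anterior and by 2.68, 2.13 and 2.51 in the soleus. Cnn1 of smooth muscle (1.27, adjusted p = 0.0155), Dtnb of the dystrophin complex (0.97, adjusted p = 0.0133), Sdk2 (0.94, adjusted p = 0.0273) and the tRNA synthetase gene Farsb (0.81, adjusted p = 0.0114) were above the soleus. Within the tibialis anterior alone Farsb lost its call in 11 of the 24 fits without a single library.

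Against the gastrocnemius Sdk2 (0.99, adjusted p = 0.0239) was higher and Esm1 (-0.88, adjusted p = 0.0466) and Lsm5 (-0.80, adjusted p = 0.0239) lower. None of the 3 passed with the replicate block or a Bonferroni adjustment, under which no gene did.

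Against the diaphragm, among the genes named by rule, Igfbp2 (1.80, adjusted p = 0.0373), Lep (1.70, adjusted p = 0.0394), Npy (1.56, adjusted p = 0.00545) and Gdf15 (1.503, adjusted p = 0.0438) were higher by the most. Other genes, not named, differed by more. Gdf15 had changes of 1.25 and -0.26. It had too few counts to be tested in the tibialis anterior alone and passed the filter with the diaphragm libraries in the fit, so its values carry that limit. Next among the named genes came Postn (1.15, adjusted p = 0.0225), Phgdh (1.08, adjusted p = 0.0161), Cnn1 (1.02, adjusted p = 0.0102), C4a (1.01, adjusted p = 0.0461), Cidea (1.01, adjusted p = 0.0273), Cidec (0.95, adjusted p = 0.0465), Ngfr (0.92, adjusted p = 0.0495) and C1qa (0.78, adjusted p = 0.0138). Mstn (-0.91, adjusted p = 0.0365) and Pfkm (-0.72, adjusted p = 0.0468) were lower, with changes of -0.82 and -0.63 in the tibialis anterior and of 0.09 and 0.10 in the diaphragm.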

How the results depend on the processing

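The 595 calls became 715 with all 7 ages in 1 fit, 542 with edgeR, 583 with DESeq2, 590 with RLE size factors, 814 with total-count scaling, 732 without a filter and 583 without symbols on more than 1 line, each within 1.5 times. They became 19 under a Bonferroni adjustment, 134 at 2-fold, 3853 with no fold threshold and 918 with sample quality weights. Leaving out a single library gave 466 (27-month replicate 5) to 953 (24-month replicate 6). Alternatives chosen after seeing the data gave 331 without 27-month replicates 0, 2, 3 and 11, 1186 without 24-month replicate 6 and 27-month replicate 9, and 582 with the second component as a covariate. The cause of these shifts was not tested, beyond the thresholds and the number of libraries that the alternatives themselves set. Rats were killed for tissue collection, so no animal gave libraries at both ages and the replicate numbers cannot pair animals across them. Deviations of same-numbered libraries from their age means had correlations of -0.281 to 0.814 over 12 pairs, with a median of 0.271. Of the 12, 7 were above 0.1 and 4 were highest with their own number. Whether the numbers follow some other shared order was not tested. The replicate block gave 660 calls. Of the differences between muscles, the gastrocnemius count of 15 became 1 with total-count scaling, 221 with quality weights, 0 under a Bonferroni adjustment and 0 with the replicate block, in which libraries without a same-numbered partner were dropped. Those counts of 0 are from limma-voom, where 1863 and 1395 genes had an unadjusted p under 0.05, and edgeR gave 13. The soleus count of 88 became 7 under Bonferroni, 293 with quality weights and 133 with the block. The diaphragm count of 269 became 504 with total-count scaling, 2 under Bonferroni, 839 with quality weights and 525 with the block. Among named genes only Myh1 and Isg15, both uncalled, changed sign. Myh1 (0.04) was at -0.0196 with quality weights, -0.0383 without the 4 libraries, -0.0288 without 1 library of each age, and between -0.000392 and 0.0872 without a single library. Isg15 (0.09) was at -0.000259 with the block, -0.0728 without the 4 libraries and between -0.0380 and 0.182 without a single library. Of 120 named values, 42 lost their call without the 4 libraries, 76 kept their side of the threshold and 2 changed sign. At depths of 21.4 to 55.6 M counts Gdf15 did not pass the filter over these 24 libraries, though it did with the libraries of another muscle in the fit.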
